A study of Mus musculus with 9 samples.

Results

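In mouse bone marrow-derived macrophages, 42 autosomal genes had nearly the same mRNA level in Control cells with and without lipopolysaccharide (LPS) and a level at least 2.5 times higher in SRF-KO cells given LPS. They were chosen from 22524 counted genes, of which 11560 had enough counts to be tested and 11144 of these were autosomal. The rule took the ratio of group means of CPM, which are counts divided by library size, here with TMM factors that centre the bulk of genes. It required Control LPS/Control untreated between 0.8 and its reciprocal, a mean of at least 10 CPM in SRF-KO with LPS, and SRF-KO LPS/Control LPS of at least 2.5. Of 3336 autosomal genes flat with LPS by this rule, 2690 reached 10 CPM in SRF-KO with LPS. The mirror rule, with at least 10 CPM in Control LPS and a ratio of at most 0.4, gave 59 genes. Because the rule used the levels of all 3 groups, the levels of the 42 genes in these groups are a description, and no p-value is given for any of them.

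RNA sequencing was done on 9 libraries of primary macrophages from C57BL/6 mice, grown from bone marrow cells for 7 days. The 3 groups of 3 libraries were wild-type cells without LPS (Control untreated), wild-type cells with LPS for 6 h (Control LPS) and SRF-KO cells with LPS for 6 h (SRF-KO LPS). The labels give no deletion strategy, Cre driver or age, do not tell if each replicate is its own animal, and include no untreated SRF-KO cells. The LPS ratio of the 42 genes was therefore measured in Control cells and not in SRF-KO cells, and the spread between libraries may be technical.

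LPS is the outer membrane lipid of Gram-negative bacteria and is sensed by macrophages through Toll-like receptor 4. Serum response factor (SRF) is a transcription factor that binds the CArG box. With MRTF cofactors it drives actin cytoskeleton genes, and with TCF cofactors it drives immediate-early genes. Several programmes that macrophages run beside the inflammatory response have members here, among them the SREBP programme of sterol supply, the unfolded protein response of the endoplasmic reticulum (ER) and the NRF2 antioxidant programme.

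Total counts ranged from 15321839 to 24912173 per library. Counting noise alone did not account for the spread of replicates, since chi-square divided by its degrees of freedom was 1.75 to 3.95 in replicate pairs. Srf had 810, 975 and 884 counts in Control untreated, 738, 799 and 900 in Control LPS, and 34, 24 and 12 in SRF-KO LPS. The Y-linked genes Uty, Ddx3y, Kdm5d and Eif2s3y had 942, 2082, 806 and 2161 counts over Control LPS and 0, 1, 1 and 4 over SRF-KO LPS. Sex of the cells and genotype cannot be told apart in any difference given here. Of 21 macrophage markers, 4 were higher and 17 lower in SRF-KO LPS than in Control LPS (edgeR quasi-likelihood test, adjusted p below 0.05), with a median log2 difference of -1.35. Adgre1, which encodes F4/80, was at 3689 CPM in Control LPS and 1701 CPM in SRF-KO LPS, Fcgr1 at 1853 and 84.2 CPM and C1qa at 1529 and 124 CPM. Csf1r was at 2286 and 2938 CPM and Lyz2 at 8925 and 12296 CPM. All 21 were detected in SRF-KO LPS, with a summed level of 28347 to 28668 CPM against 38275 to 39213 CPM in Control LPS, of which Lyz2 is the largest part. The part of this shift in the levels of the 42 genes was not tested.

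The label of flat expression rests on the scaling. TMM factors were 1.18 to 1.19 in Control untreated, 0.810 to 0.814 in Control LPS and 1.04 in SRF-KO LPS. With library totals alone, 41 of the 42 genes had a Control LPS/untreated ratio below 0.8. Only Tbl2 stayed in the flat range, and the median ratio was 0.658 in place of 0.963. Library totals moved the median log2 ratio of all tested genes to -0.57. The SRF-KO/Control LPS ratios were 3.23 to 44.8 with library totals, 2.71 to 37.6 with upper quartile factors and 2.51 to 34.8 with DESeq2-type size factors. A scaling multiplies this ratio by nearly the same factor in every gene: the median log2 ratio of all tested genes was 0.37 with library totals and 0.12 with upper quartile factors, against 0.01 with TMM. The 42 genes could therefore not drop below 2.5 under these 2 scalings.

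**Figure D1:**
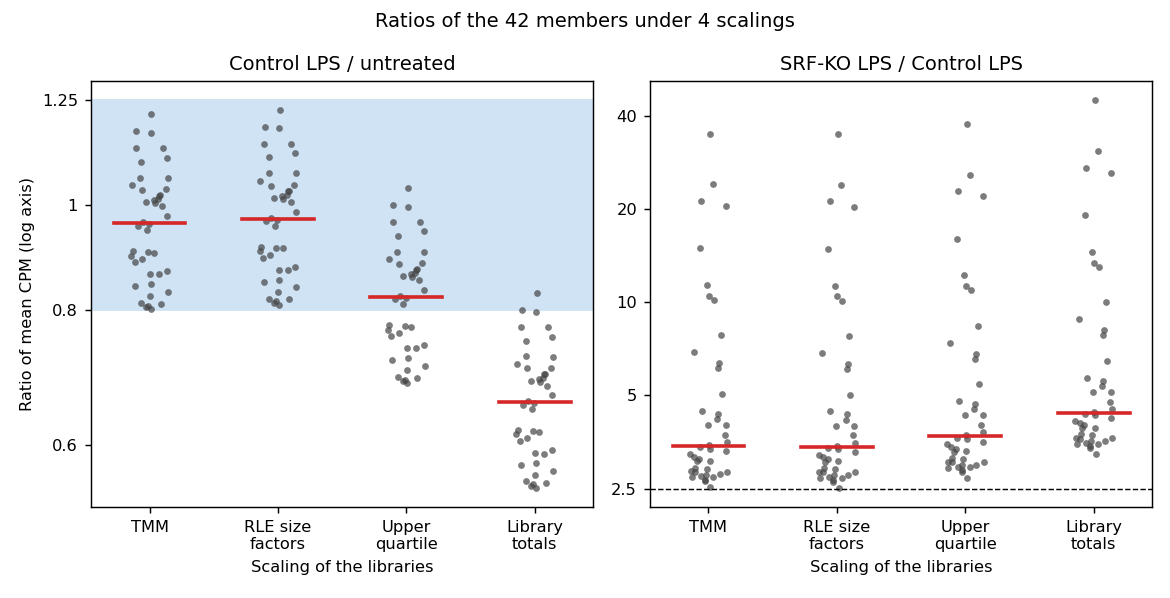
Ratios of mean CPM of the 42 genes under 4 scalings of the libraries (log axes). Each point is a gene, the red line is the median, the shaded band is the flat range from 0.8 to its reciprocal and the dashed line is the ratio of 2.5. The median LPS ratio moves from 0.963 with TMM to 0.658 with library totals, and the median SRF-KO/Control LPS ratio from 3.43 to 4.39, each along with all tested genes.

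The promoters were searched for the motif of SRF itself and for those of the sterol, ER and antioxidant programmes named above. The AP-1 site and the cyclic AMP response element were searched as well. Promoters (300 bases, 250 before to 50 after the start) from RefSeq on GRCm38.p6 were found for 31 of the 42 genes. The CArG box was searched on both strands, and of these promoters only that of Dusp5 held it, with 2 adjacent boxes 82 to 73 and 72 to 63 bases before the start. A CArG box was present for 1.74% of all 25748 autosomal genes with a promoter in the table, and for 1.74% of LPS-flat genes. Srxn1 held 2 AP-1 sites (TGANTCA, both strands), the motif of Jun and Fos dimers, and the promoter of Srxn1 is shown for comparison. The Dusp5 window is chr19:53528895-53529194 (plus strand) and the Srxn1 window chr2:152105274-152105573 (plus strand). Capitals mark the CArG boxes in Dusp5 and the AP-1 sites in Srxn1.
Dusp5: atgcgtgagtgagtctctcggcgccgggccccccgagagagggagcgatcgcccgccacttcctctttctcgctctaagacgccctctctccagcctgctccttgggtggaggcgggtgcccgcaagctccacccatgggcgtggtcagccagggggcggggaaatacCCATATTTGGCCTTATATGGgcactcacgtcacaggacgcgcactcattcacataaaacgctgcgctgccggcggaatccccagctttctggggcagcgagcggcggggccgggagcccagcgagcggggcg
Srxn1: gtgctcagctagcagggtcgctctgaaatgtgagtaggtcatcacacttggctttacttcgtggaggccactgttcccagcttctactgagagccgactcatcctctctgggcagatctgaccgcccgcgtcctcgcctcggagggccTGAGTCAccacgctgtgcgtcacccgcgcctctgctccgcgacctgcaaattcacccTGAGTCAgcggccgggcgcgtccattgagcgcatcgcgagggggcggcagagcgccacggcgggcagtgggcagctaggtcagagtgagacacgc
AP-1 sites lay in 4 of 31 member promoters (12.9%), against 9.05% of all genes and 6.05% of LPS-flat genes. The antioxidant response element core (TGANNNNGC, both strands, which can overlap an AP-1 site) lay in 17 of 31 (54.8%), against 45% and 48.8%. Srxn1 was among these, with 4 matches that the capitals above do not set out to mark. The second AP-1 site shown in Srxn1 is also the start of such a match. The sterol regulatory element core (TCACNCCAC, both strands) was found in Sec24d alone, against 1.45% and 1.15%. A cyclic AMP response element (TGACGTCA) was found in Clcn3 alone (2.08% and 3.93%), and the ER stress response element (both strands) in none (0.132% and 0.297%). The promoters of Fdft1 and Hyou1 were not analysed here. A match is a description of the letters and not of binding.

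All 42 genes are protein coding and lie on 17 chromosomes. Exons of 4 overlap another gene on the same strand (Syne2, Phospho1, Raet1e and Raet1d) and exons of 10 overlap an antisense gene, so reads of these may be shared. The ratio of SRF-KO LPS to Control LPS had a median of 3.43, and it was at least 10 for 8 genes, between 4 and 10 for 10, and between 2.5 and 4 for 24. Against Control untreated the ratio was 2.15 to 40.8 with a median of 3.45. The CPM ranges of SRF-KO LPS lay above those of Control LPS for 42 of 42 genes, where 39.7% of all tested genes do so. They lay above those of Control untreated for 42 of 42, where 39.6% of tested genes do so. These separations follow from the rule. A ratio of at least 2.5 was found for 9.86% of tested genes. In 36 of the 42, every SRF-KO LPS library was at least 2.5 times every Control LPS library (7.16% of tested genes). The 6 without this were Aacs, Tbl2, Raet1e, Raet1d, Clcn3 and Dnajb9. The share of 36 of 42 also follows largely from the rule. Of 11560 tested genes, 1140 had a ratio of means of at least 2.5, and 828 had it between every pair of libraries.

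Within the flat range the genes were not all alike. Control LPS and Control untreated ranges overlapped for 26 of the 42 (17.9% of all tested genes). Control LPS lay fully above for 5 and fully below for 11, where 40.7% and 41.4% of tested genes do so. These directions rest on the TMM scaling, since the LPS ratios of the 42 genes were 0.548 to 0.829 with library totals. More overlap than over all tested genes follows from the flat range of the rule. The coefficient of variation between SRF-KO LPS libraries was 0.299% to 9.87% (median 4.30%), near the median of 5.11% over tested genes. In Control LPS it reached 63.5%, in Mgst2, whose counts there were 9, 2 and 9.

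**Figure D2:**
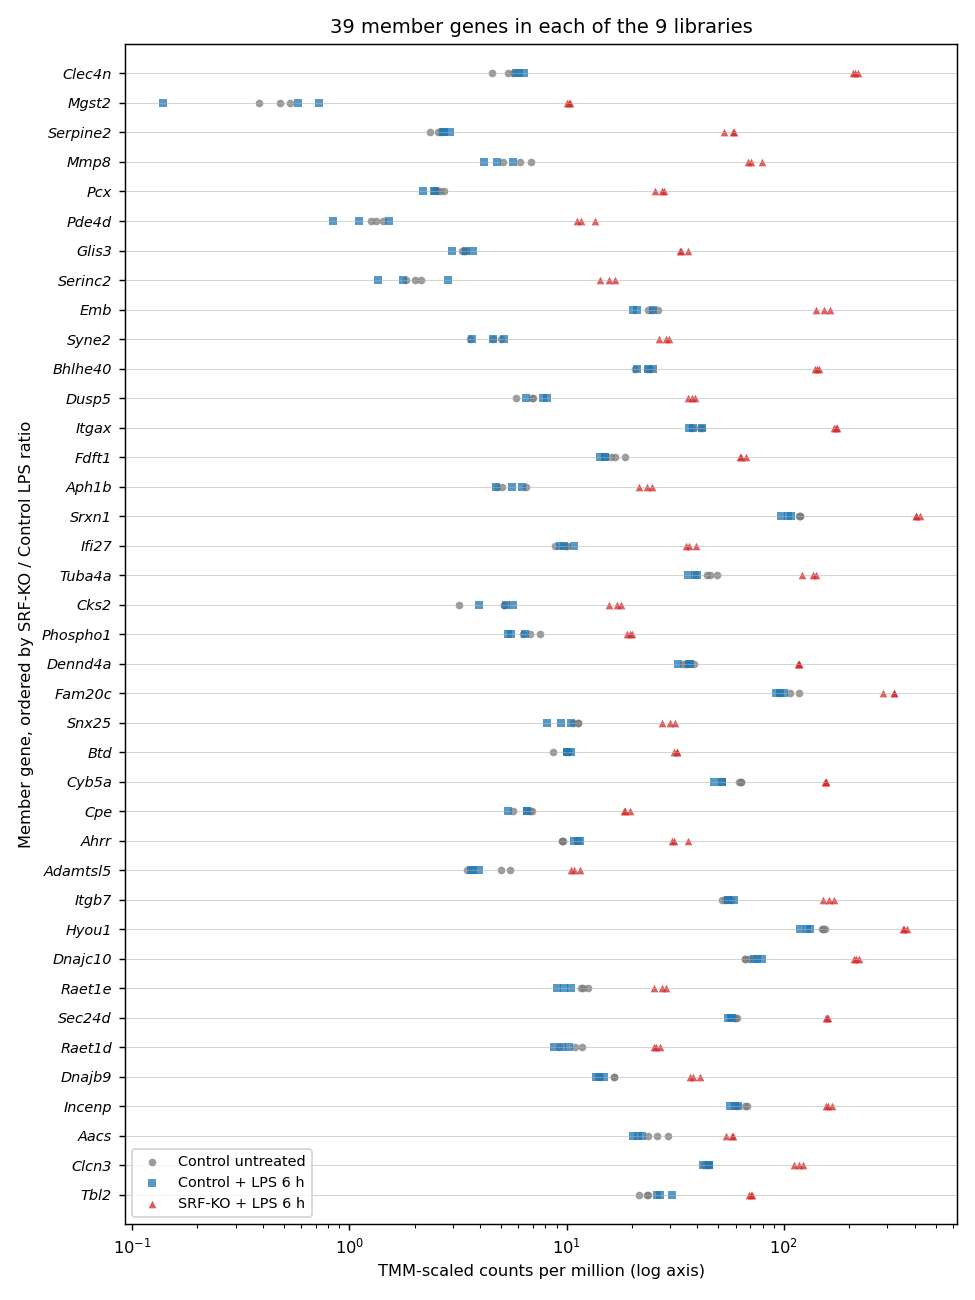
TMM-scaled CPM (log axis) of 39 of the 42 genes in each of the 9 libraries, ordered by the SRF-KO LPS/Control LPS ratio from Clec4n (35.0) to Tbl2 (2.53). Grey circles are Control untreated, blue squares Control LPS and red triangles SRF-KO LPS; the red triangles lie to the right of every other point in all 39 genes shown.

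The widest ratio belonged to a surface receptor. Clec4n (chromosome 6, 123229843 to 123247021, plus strand, GRCm38) encodes Dectin-2, a C-type lectin receptor for fungal mannans. Its level was 5.40, 5.70 and 4.54 CPM in Control untreated, 6.36, 5.88 and 6.01 CPM in Control LPS, and 207, 212 and 219 CPM in SRF-KO LPS. All 3 SRF-KO libraries were at least 32.6 times any Control LPS library, and the ratio of means was 35.0. With TMM scaling, Clec4n was also slightly above Control untreated in all 3 Control LPS libraries. Its LPS ratio was 0.997 with upper quartile factors and 0.797 with library totals. Per kilobase of exon it was also the highest of the 42 genes in SRF-KO LPS, at 149.8 CPM per kb, and 4.29 CPM per kb in Control LPS.

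Emb encodes embigin, a chaperone of monocarboxylate transporters and an adhesion protein. It was at 24.8, 26.4 and 23.6 CPM in Control untreated, 21.0, 25.02 and 20.2 CPM in Control LPS, and 140.1, 153 and 162 CPM in SRF-KO LPS. Its Control groups overlapped and all 3 SRF-KO libraries were apart from them, with a ratio of 6.88.

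A pair of leukocyte integrin subunits belonged to the group. Itgax (chromosome 7, 128129547 to 128150657, plus strand), the CD11c chain, was at 37.8, 42.1 and 40.9 CPM in Control untreated, 41.98, 38.2 and 36.5 CPM in Control LPS, and 174, 169.6 and 176 CPM in SRF-KO LPS. Itgb7, the beta-7 chain that pairs with alpha-4 and alpha-E, was at 54.2 ± 2.62, 56.6 ± 1.96 and 161 ± 9.98 CPM (mean ± SD, n = 3 each, here and below in the order Control untreated, Control LPS, SRF-KO LPS). Neither gene's Control ranges were apart from each other. In the list of integrins and adhesion genes, 10 of the 21 other tested genes were higher and 9 lower in SRF-KO LPS (edgeR quasi-likelihood test, Benjamini-Hochberg adjusted p below 0.05). Over all tested genes 39.1% were higher and 37.9% lower (4521 and 4384 genes, or 7059 and 2434 with library totals), and this list had a median log2 difference of 0.04. Among these others Itga9 fell from 65.0 ± 3.81 to 4.67 ± 0.736 CPM and Icam1, the ligand of beta-2 integrins, from 877 ± 29.3 to 331 ± 6.18 CPM. Cd9, a tetraspanin, rose from 194 ± 4.41 to 536 ± 17.8 CPM.

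Itgax is also a dendritic cell marker. The 14 other dendritic cell markers summed to 895 to 942 CPM in Control untreated, 1552 to 1661 CPM in Control LPS and 579 to 599 CPM in SRF-KO LPS. Bst2 was the largest part of these sums, at 610, 1009 and 227 CPM in the same order. Of the 8 tested others, 2 were higher and 5 lower in SRF-KO LPS than in Control LPS. Fscn1, Bst2 and Tcf4 fell by 3.41, 2.15 and 1.55 on the log2 scale. The 2 higher ones, Ccr7 and H2-Ab1, rose by 2.03 and 0.775 on this scale. Zbtb46 and Xcr1, defining markers of classical dendritic cells, were at 0.394 and 0.113 CPM in SRF-KO LPS. In Control LPS they were at 0.294 and 0.151 CPM. In bulk RNA, fewer cells of a type and less RNA per cell cannot be told apart.

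Raet1e and Raet1d encode ligands of the NKG2D receptor of natural killer cells. They were at 9.76 ± 0.711 and 9.49 ± 0.751 CPM in Control LPS and 27.1 ± 1.67 and 26.0 ± 0.928 CPM in SRF-KO LPS, ratios of 2.78 and 2.74. The annotated Raet1e gene spans Raet1d (chromosome 10, 22158569 to 22374139 and 22360552 to 22374139, both plus strand) and also shares exon positions with H60b. Their reads could not be told apart with certainty, so these may not be separate measurements.

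Among proteases and their inhibitors, Serpine2 and Mmp8 stood highest by ratio. Serpine2 (chromosome 1, 79794197 to 79861180, minus strand) encodes protease nexin-1, an inhibitor of thrombin and urokinase. It was at 2.56, 2.63 and 2.35 CPM in Control untreated, 2.74, 2.70 and 2.91 CPM in Control LPS, and 58.1, 59.2 and 53.1 CPM in SRF-KO LPS, a ratio of 20.4. With TMM scaling Control LPS lay just above Control untreated, with no overlap, but the LPS ratio of Serpine2 was 0.756 with library totals. Mmp8 (chromosome 9, 7558456 to 7568485, plus strand) encodes neutrophil collagenase. It was at 5.11, 6.08 and 6.83 CPM in Control untreated, 4.19, 4.77 and 5.69 CPM in Control LPS, and 68.6, 70.5 and 79.2 CPM in SRF-KO LPS. The Control groups overlapped and the ratio in SRF-KO was 14.9.

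Other matrix protease genes did not move one way. Of 22 other tested matrix proteases and inhibitors, 9 were higher and 9 lower in SRF-KO LPS. Mmp12, macrophage elastase, rose from 133 ± 8.06 to 1026 ± 82.0 CPM. The membrane-bound Mmp25 fell from 152 ± 3.76 to 11.2 ± 0.172 CPM and Mmp14 from 1564 ± 38.0 to 338 ± 7.39 CPM.

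Mmp8 was also on the list of neutrophil markers. The 15 other markers summed to 188 to 209 CPM in SRF-KO LPS, 559 to 582 CPM in Control LPS and 52.9 to 56.5 CPM in Control untreated. Of the 6 tested others, 3 were higher and 2 lower in SRF-KO LPS. Csf3r fell from 246 ± 7.30 to 17.99 ± 2.37 CPM, Lcn2 fell from 308 ± 5.24 to 122 ± 8.49 CPM and Mmp9 rose from 9.65 ± 0.746 to 36.5 ± 1.95 CPM. The defining neutrophil genes Ly6g, Retnlg and Stfa2l1 had 0 counts in every SRF-KO library, and were at 0 CPM in Control LPS too. Camp, a granule gene of this list, was at 1.08 CPM in Control LPS and 2.60 CPM in SRF-KO LPS. The progenitor granule genes Mpo, Elane, Prtn3 and Ctsg were at 0 CPM in both LPS groups. Of 5 tested markers of granulocyte-monocyte progenitors, 2 were higher and 1 lower in SRF-KO LPS. Cd34 rose from 0.278 to 8.78 CPM and Gfi1 fell from 6.66 to 3.33 CPM. S100a8 was at 16.1 CPM in SRF-KO LPS and 5.11 CPM in Control LPS, and S100a9 at 0.434 and 0.566 CPM. The part of these cell types in the levels of Mmp8 and Itgax was not tested.

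Osteoclasts, which also arise from macrophage precursors, have markers that were mostly higher in SRF-KO LPS. Of 11 tested osteoclast markers, 9 were higher and 2 lower than in Control LPS, with a median log2 difference of 1.42. Ctsk, cathepsin K, was at 1.85, 1.106 and 24.6 CPM in the 3 groups, Dcstamp, a fusion protein, at 2.96, 1.94 and 27.3 CPM, and Acp5, the tartrate-resistant phosphatase, at 15.8, 53.2 and 134 CPM. The lower ones were Ckb (304 to 150.5 CPM) and Tnfrsf11a, the receptor RANK (279 to 44.2 CPM). Not all of the higher ones exceeded Control untreated. Atp6v0d2 was at 20.9, 5.18 and 13.9 CPM in the 3 groups, and Itgb3 at 5.80, 0.620 and 1.60 CPM. The sum of all 12 markers was 504 to 509.5 CPM in SRF-KO LPS and 669 to 684 CPM in Control LPS, and its part in the levels of the 42 genes was not tested.

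The remaining secreted or membrane-protease members had lower ratios, and lower levels in SRF-KO LPS. Aph1b, a gamma-secretase subunit, was at 5.46 ± 0.925, 5.53 ± 0.738 and 23.2 ± 1.67 CPM, a ratio of 4.19. Btd, which encodes biotinidase, was at 9.62 ± 0.871, 10.2 ± 0.267 and 31.9 ± 0.571 CPM, a ratio of 3.13. Cpe, carboxypeptidase E of the regulated secretory pathway, had a ratio of 3.06 and Adamtsl5, a matrix protein without protease activity, one of 2.90.

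Genes of sterol and lipid supply were also among the members. Fdft1, squalene synthase, was at 17.1 ± 1.30, 14.8 ± 0.468 and 64.4 ± 2.25 CPM, a ratio of 4.36. Its exons overlap the antisense Ctsb, and the strand setting of the counting is not given in the sources used here. Aacs, acetoacetyl-CoA synthetase, which turns ketone bodies into lipid precursors, was at 26.4 ± 2.78, 21.2 ± 1.03 and 56.7 ± 2.40 CPM. Cyb5a, cytochrome b5, an electron donor for sterol and fatty acid enzymes, was at 63.1 ± 0.960, 50.6 ± 2.38 and 156 ± 0.465 CPM. Aacs and Cyb5a lay at the lower edge of the flat range, with LPS ratios of 0.805 and 0.802.

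The other genes of cholesterol synthesis were also higher in SRF-KO LPS, but most were not flat with LPS. Of 19 other tested genes, 18 were higher and 1 lower in SRF-KO LPS, with a median log2 difference of 2.05 against 0.01 over all other tested genes. With LPS in Control cells, 0 of the 19 were higher and 18 lower, where 40.8% of tested genes were higher and 40.8% lower (4722 and 4721 genes, or 2428 and 7835 with library totals). Sqle, squalene epoxidase, was at 52.0 ± 1.45, 11.3 ± 0.836 and 125 ± 5.23 CPM (log2 difference between SRF-KO LPS and Control LPS 3.47, SE 0.0642, edgeR adjusted p = 2.38e-34). Cyp51 was higher in SRF-KO LPS by 3.10 on the log2 scale. Fdft1 was also lower in Control LPS, with a ratio of 0.863 and no overlap of the Control ranges. In this list it differed from most others in the size of its LPS ratio and not in the direction in SRF-KO. The rule fixed both for Fdft1.

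**Figure D3:**
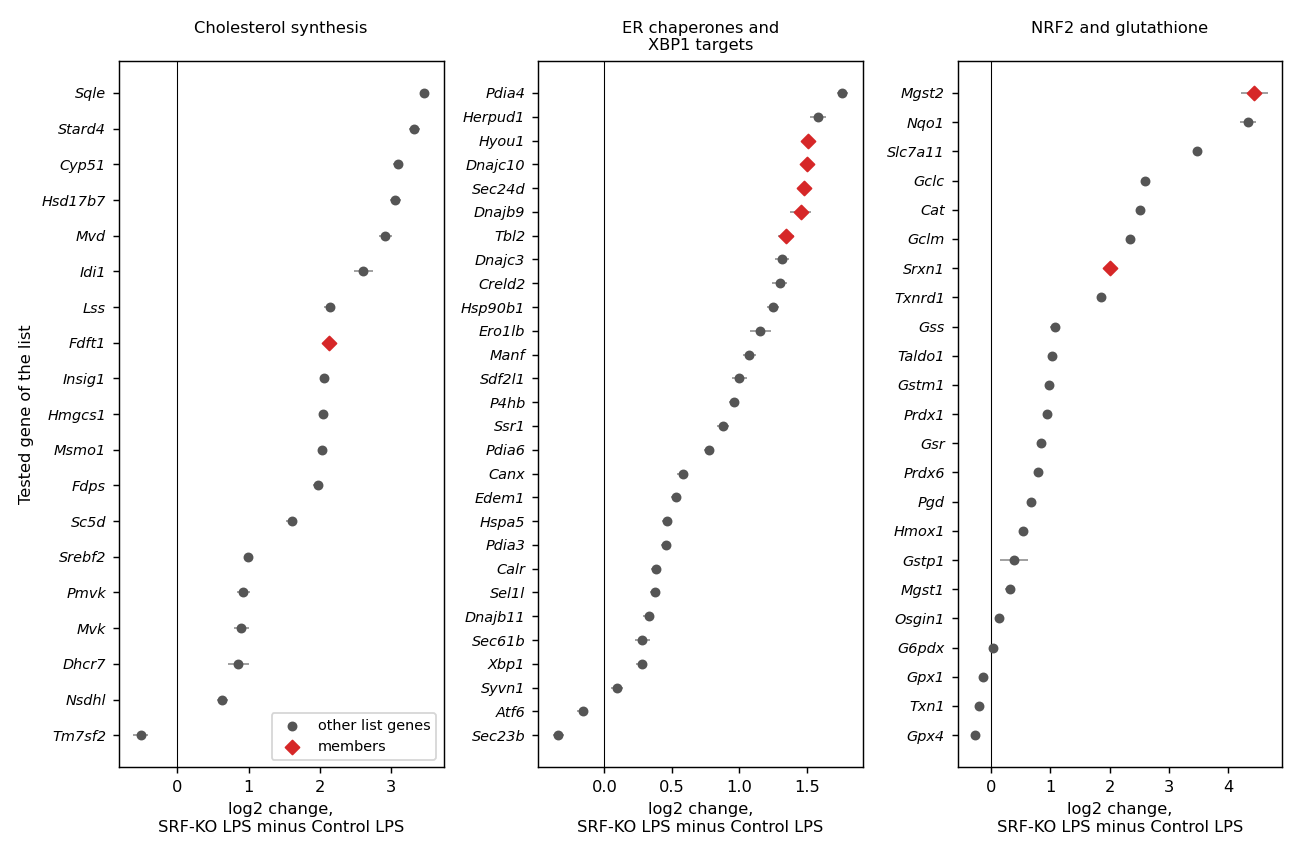
Log2 difference between SRF-KO LPS and Control LPS, with its standard error, for tested genes of 3 lists. Red diamonds are genes of the LPS-flat group, shown as a description, and grey circles the other list genes. In the sterol panel Fdft1 and the other genes shown except Tm7sf2 lie right of 0; Sqle is at 3.47.

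ER folding and secretion gave 6 members by roles assigned after they were known, with ratios between 2.53 and 3.24. Hyou1 (chromosome 9, 44379490 to 44392369, plus strand), an ER chaperone of the HSP70 superfamily, was at 151, 150.4 and 154 CPM in Control untreated, 132, 128 and 119 CPM in Control LPS, and 368, 353 and 356 CPM in SRF-KO LPS. Dnajc10, an ER reductase and co-chaperone, was at 69.2, 66.3 and 66.0 CPM in Control untreated, 75.2, 79.6 and 72.9 CPM in Control LPS, and 209.9, 221 and 214 CPM in SRF-KO LPS. With LPS, Hyou1 was slightly lower and Dnajc10 slightly higher in Control cells, both without overlap of the ranges. The direction of Dnajc10 rests on the TMM scaling, since its LPS ratio was 0.772 with library totals.

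Fam20c encodes the Golgi kinase that phosphorylates secreted proteins. It was at 95.5, 107 and 117 CPM in Control untreated, 100.1, 91.6 and 95.8 CPM in Control LPS, and 322, 287 and 321 CPM in SRF-KO LPS. Dnajb9, an ER co-chaperone induced by XBP1, was at 15.8 ± 1.32, 14.3 ± 0.604 and 38.8 ± 2.11 CPM. Sec24d, a cargo adaptor of COPII vesicles, was at 60.0 ± 0.585, 56.9 ± 1.23 and 158 ± 2.05 CPM. Tbl2, an ER membrane protein that binds the stress kinase PERK, had the lowest ratio of all 42 genes, 2.53, and the highest LPS ratio, 1.21.

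A list of ER chaperones and XBP1 targets was added after the members were known. Of its 23 other tested genes, 20 were higher and 2 lower in SRF-KO LPS, or 22 and 0 with library totals, with a median log2 difference of 0.58. In Control cells 6 of the 23 were higher and 10 lower with LPS, or 2 and 19 with library totals. Pdia4 was at 121 ± 1.09, 55.8 ± 1.27 and 189 ± 2.31 CPM (log2 difference 1.76). Hsp90b1 and P4hb were higher in SRF-KO LPS by 1.246 and 0.96 on the log2 scale.

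Redox members were Srxn1 and Mgst2. Srxn1 (chromosome 2, 152105516 to 152111376, plus strand) encodes sulfiredoxin, which repairs oxidised peroxiredoxins, and had the highest CPM of the 42 genes in SRF-KO LPS. It was at 119, 118 and 117 CPM in Control untreated, 96.8, 107 and 104 CPM in Control LPS, and 407, 408 and 422 CPM in SRF-KO LPS, a ratio of 4.01. Per kilobase of exon it reached 146 CPM per kb in SRF-KO LPS, next to Clec4n. Mgst2 (chromosome 3, 51660360 to 51682677, plus strand), a microsomal glutathione transferase, was at 0.386, 0.479 and 0.534 CPM in Control untreated, 0.725, 0.138 and 0.582 CPM in Control LPS, and 10.4, 10.3 and 10.04 CPM in SRF-KO LPS. Its counts were 8, 10 and 10, then 9, 2 and 9, and 231, 265 and 177, so the ratio of 21.2 has a thinly counted base.

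NRF2 and glutathione genes outside the group were mostly higher in SRF-KO LPS as well. Of 21 others tested, 15 were higher and 3 lower, or 20 and 0 with library totals, with a median log2 difference of 0.84. With LPS in Control cells 12 of these 21 were higher and 6 lower, or 6 and 11 with library totals. Slc7a11, the cystine transporter, was at 2.08 ± 0.0984, 168 ± 10.9 and 1865 ± 51.0 CPM. Cat, catalase, was at 132 ± 2.69, 85.6 ± 2.35 and 488 ± 7.29 CPM, and Gclm, a subunit of the glutathione synthesis enzyme, was higher in SRF-KO LPS by 2.34 on the log2 scale.

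Transcriptional regulators were also in the group. Bhlhe40 (chromosome 6, 108660629 to 108666925, plus strand), a basic helix-loop-helix repressor with roles in circadian timing and macrophage proliferation, was at 20.6, 23.4 and 24.3 CPM in Control untreated, 24.9, 21.2 and 23.7 CPM in Control LPS, and 143, 139 and 145 CPM in SRF-KO LPS. Glis3, a zinc finger factor known from pancreatic beta cells and thyroid, was at 3.38, 3.40 and 3.31 CPM in Control untreated, 3.71, 3.46 and 2.97 CPM in Control LPS, and 33.2, 36.2 and 33.5 CPM in SRF-KO LPS. The Control groups overlapped for both, and the ratios were 6.12 and 10.1. Ahrr, the repressor of the aryl hydrocarbon receptor, was at 9.58 ± 0.0857, 11.2 ± 0.336 and 32.7 ± 3.08 CPM, a ratio of 2.92.

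Dusp5 and Pde4d are signalling brakes. Dusp5, a nuclear phosphatase of ERK and a known SRF target, holds the tandem CArG boxes shown above. It was at 5.84, 6.94 and 7.05 CPM in Control untreated, 8.14, 6.50 and 7.76 CPM in Control LPS, and 39.0, 36.4 and 37.6 CPM in SRF-KO LPS, a ratio of 5.05. All 3 SRF-KO libraries were above every Control library, as for every member, which follows from the rule. The part of SRF in the level of Dusp5 was not tested. Exons of Dusp5 overlap those of an antisense gene, AC137853.2. Pde4d, a cyclic AMP phosphodiesterase, was at 1.254, 1.44 and 1.33 CPM in Control untreated, 1.53, 1.106 and 0.841 CPM in Control LPS, and 11.7, 13.5 and 11.2 CPM in SRF-KO LPS. Its ratio was 10.5, and the Control groups overlapped. Counts of Pde4d in Control LPS were only 19, 16 and 13, and the ratio between single libraries ran from 7.33 to 16.1.

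The lists that hold Dusp5 moved in both directions. Of 18 other tested immediate-early SRF targets, 8 were higher and 8 lower in SRF-KO LPS. The lower ones include Srf itself (log2 difference -5.76, SE 0.124), the gene knocked out. Dusp1 fell from 439 ± 9.39 to 129 ± 3.18 CPM and Klf6 from 684 ± 7.09 to 208 ± 8.13 CPM. Among the higher ones, Nr4a1 rose from 5.86 ± 0.551 to 23.1 ± 1.05 CPM. Of 17 other MAP kinase feedback genes, 6 were higher and 8 lower. Dusp2 fell from 205 ± 5.44 to 11.6 ± 0.656 CPM, whereas Phlda1 rose from 20.2 ± 0.462 to 90.9 ± 1.47 CPM.

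Metabolic enzymes outside lipid supply were Pcx and Phospho1. Pcx, pyruvate carboxylase, which refills the TCA cycle with oxaloacetate, was at 2.61, 2.54 and 2.72 CPM in Control untreated, 2.18, 2.49 and 2.46 CPM in Control LPS, and 28.03, 25.5 and 27.4 CPM in SRF-KO LPS. Every SRF-KO library was at least 10.2 times any Control LPS library. Phospho1, a phosphatase of phosphocholine and phosphoethanolamine, was at 6.86 ± 0.626, 5.80 ± 0.582 and 19.5 ± 0.508 CPM.

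Syne2 and Tuba4a belong to the nuclear linker and microtubules. Syne2, nesprin-2, which ties the nucleus to the cytoskeleton, was at 4.97, 3.59 and 4.59 CPM in Control untreated, 4.59, 3.66 and 5.17 CPM in Control LPS, and 29.7, 26.8 and 28.8 CPM in SRF-KO LPS, a ratio of 6.35. Tuba4a, an alpha-tubulin, was at 46.6 ± 2.47, 38.4 ± 1.79 and 133 ± 10.1 CPM, and tubulin reads can be shared between similar genes. Of 16 other tested tubulin, microtubule and intermediate filament genes, 9 were higher and 7 lower in SRF-KO LPS, or 3 lower with library totals. Lmnb1, lamin B1, rose from 4.04 ± 0.0992 to 35.9 ± 2.65 CPM and Tubb4b from 115 ± 5.22 to 247 ± 8.04 CPM, whereas Nes, nestin, fell from 10.3 ± 0.608 to 0.667 ± 0.275 CPM.

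Incenp and Cks2 are cell division genes. Incenp, the scaffold of the chromosomal passenger complex, was at 65.1 ± 3.50, 59.1 ± 2.40 and 161 ± 5.19 CPM. Cks2, a small subunit of cyclin-dependent kinases, was at 4.51 ± 1.13, 4.95 ± 0.895 and 16.8 ± 1.07 CPM. Control ranges overlapped for both, and the ratios were 2.72 and 3.40. The list of mitosis and spindle genes holds no member and was named after its values were seen. All 28 of its genes were higher in SRF-KO LPS than in Control LPS, with a median log2 difference of 3.70, and all 28 were lower with LPS in Control cells (median -2.96). These directions held for all 28 with library totals.

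Membrane traffic and transport gave 4 members. Serinc2, a serine incorporator family protein, was at 1.83, 2.01 and 2.14 CPM in Control untreated, 1.77, 2.83 and 1.36 CPM in Control LPS, and 15.7, 14.2 and 16.7 CPM in SRF-KO LPS, a ratio of 7.82. Its counts in Control LPS were only 22, 41 and 21, and the ratio between single libraries ran from 5.01 to 12.3. Dennd4a, an exchange factor for Rab10, was at 36.2 ± 2.27, 35.4 ± 2.30 and 117 ± 0.617 CPM. Clcn3, a chloride/proton exchanger of endosomes, was at 44.1 ± 1.27, 44.3 ± 1.62 and 117 ± 5.12 CPM. Snx25, a sorting nexin, had a ratio of 3.17 and an LPS ratio of 0.842.

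Ifi27, which belongs to a family of interferon-inducible genes, was at 9.61 ± 0.651, 9.94 ± 0.749 and 37.1 ± 1.98 CPM. Its ratio was 3.73, and the Control ranges overlapped. The list of interferon-stimulated genes holds no member and was named after its values were seen. Its 25 genes were all lower in SRF-KO LPS than in Control LPS (median log2 difference -2.33) and all higher with LPS in Control cells (median 2.92), or 24 of 25 with library totals.

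**Figure D4:**
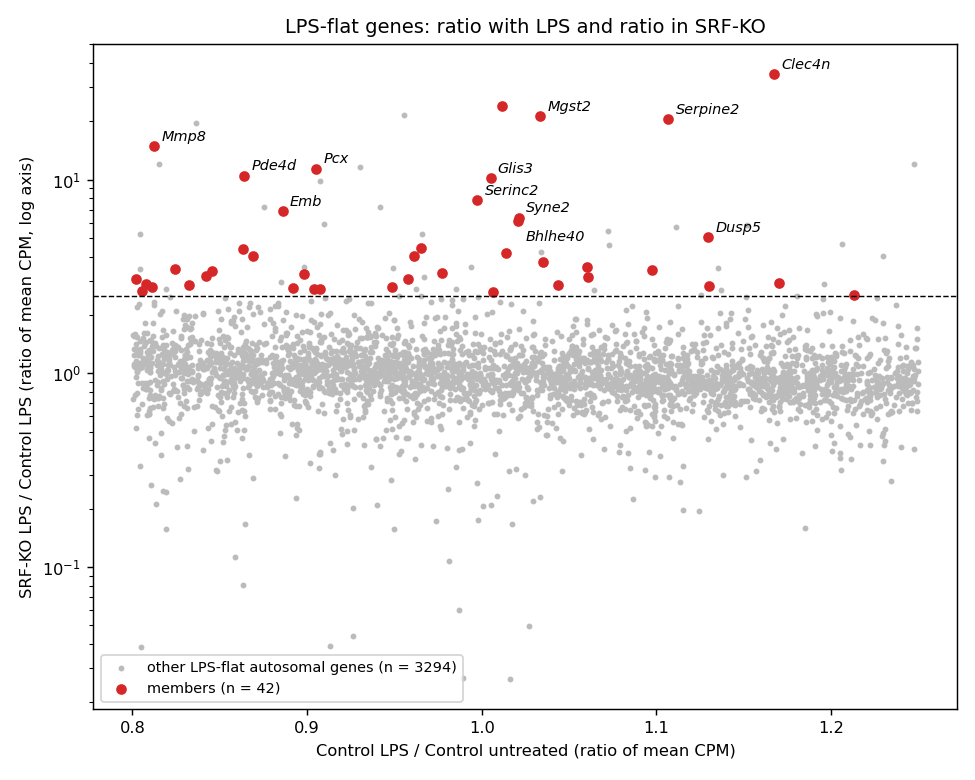
Ratio of SRF-KO LPS to Control LPS (log axis) against the ratio of Control LPS to Control untreated for autosomal LPS-flat genes. Red points are the 42 members, the dashed line is the ratio of 2.5, and grey points above it had less than 10 CPM in SRF-KO LPS. Clec4n is the highest red point at 35.0.

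The 3 genes nearest each threshold on both sides were as follows. At the lower LPS limit, Cyb5a (0.802), Aacs (0.805) and Adamtsl5 (0.808) were inside, and Edil3 (0.798), Hmgcs1 (0.797) and Chsy1 (0.792) outside. At the upper limit, Tbl2 (1.21), Ahrr (1.17) and Clec4n (1.17) were inside, and Hvcn1 (1.27), Nr4a1 (1.28) and Errfi1 (1.32) outside. In SRF-KO LPS, Mgst2 (10.2 CPM), Adamtsl5 (10.9 CPM) and Pde4d (12.1 CPM) were inside, and Tmem263 (9.31 CPM), Pdia5 (7.55 CPM) and Rnf183 (6.53 CPM) outside. For the SRF-KO ratio, Tbl2 (2.53), Clcn3 (2.64) and Aacs (2.67) were inside, and Ifrd1 (2.49), Creld2 (2.46) and Gabarapl1 (2.46) outside. Hmgcs1, an enzyme of sterol synthesis, and the ER gene Creld2 were thus just outside. The X-linked Pls3 and ENSMUSG00000102040, a gene without a position in the annotation used, met the other criteria but not the autosomal one.

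Genes outside the group with the most similar profile were P4hb, Stfa3, Ampd3, Txndc11 and Ptprd. Their log2 CPM over the 9 libraries had a Pearson correlation of 0.998 to 0.999 with the mean profile of the 42 genes, a description over libraries that share groups and scaling. P4hb, Ampd3 and Txndc11 had SRF-KO/Control LPS ratios of 1.94, 2.41 and 2.41, below the 2.5 of the rule. Stfa3 and Ptprd had 0 counts in both Control groups and 0.665 and 1.39 CPM in SRF-KO LPS.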

How the data were processed

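RNA of 9 macrophage libraries was sequenced from a stranded library kit. The deposited values are whole-number counts per Ensembl gene, not normalized, which the authors made from the reads. Per the submitters' processing notes the tools were STAR 2.5.4b, featureCounts, Trimmomatic, edgeR and bcl2fastq 2.19, and the build was GRCm38. Neither the strand option used in counting nor the release of the annotation is known from the labels. Symbols, positions and exon overlaps came from GENCODE M21 (GRCm38), which held 22214 of the 22524 identifiers.

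Counts were filtered with filterByExpr by group and scaled by TMM in edgeR 4.0.16 (R 4.3.3, limma 3.58.1), and ratios were taken between group means of CPM. Genes outside the group were tested with edgeR's quasi-likelihood test fitted on all 9 libraries and all 11560 tested genes, with Benjamini-Hochberg adjustment and a threshold of 0.05. Log2 CPM for profiles used a prior count of 2. DESeq2 1.42.0, other scalings, filters and thresholds, each library left out in turn and a replicate block were the alternatives. It is unknown if replicates came from different mice or dishes, and the p-values rest on library-to-library spread, which may be technical.

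The members and the gene lists were chosen with earlier results of these data known. Member roles, the list of ER chaperones and the requirement that every SRF-KO library be 2.5 times every Control LPS library were added after the members were known, and counts for the macrophage, osteoclast, mitosis and interferon lists under the alternatives were added later still. A few genes that the rule below would name are not reported here. Otherwise values in every library are given for the 12 members with the highest SRF-KO/Control LPS ratio and the 8 with the highest SRF-KO CPM. Up to 4 more are described per role by ratio, with up to 3 other genes of each list that holds a member, by smallest p, and the 3 genes nearest each threshold on both sides. Some cell type markers, Ccr7 and H2-Ab1 among them, are named beyond these rules. Mean ± SD is over 3 libraries.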

Additional observations from a re-analysis of the deposited data

How the results depend on the processing

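The size of the group follows its thresholds. A flat range of 0.9 to about its reciprocal left 22 genes and one of 0.67 to 1.5 gave 84, and an SRF-KO/Control LPS ratio of at least 2 gave 90. The median SRF-KO/Control LPS ratio was 4.39 with library totals and 3.69 with upper quartile factors. The median Control LPS/untreated ratio was 0.658 and 0.823 under these scalings. The median log2 ratio of all tested genes moved with them, to 0.37 and 0.12 for SRF-KO LPS against Control LPS and to -0.57 and -0.25 for LPS. With library totals 57 genes met the rule, of which 1 was among the 42, and with upper quartile factors 49, of which 24 were. With DESeq2-type size factors 44 genes met it, all 42 included.

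Leaving out each library in turn gave 41 to 43 genes, of which 36 to 42 were among the 42. The median SRF-KO/Control LPS ratio was then 3.41 to 3.51 and the median LPS ratio 0.943 to 0.965. Mgst2, Serinc2, Aacs, Tbl2, Raet1e, Adamtsl5, Snx25, Mmp8, Phospho1, Pde4d and Cyb5a left the group at least once.

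Over all tested genes, 8905 differed between SRF-KO LPS and Control LPS, and 8607 with DESeq2. With the replicate number as a block 8919 differed, and 9467 in place of 9443 between Control LPS and Control untreated. Same-numbered libraries did not deviate together: the 9 correlations were -0.0746 to 0.0971, and the best-correlated library had the same number in 8 of 18 checks. Counts of 10 or fewer, as for Mgst2 in the Control groups, limit the precision of its ratio.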
